A study of Mus musculus with 4 samples.

Results

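The eicosanoid synthesis genes described here are 10 of the 31253 genes in a single-cell count matrix from mouse peritoneal cells: Alox15, Alox5, Alox5ap, Lta4h, Ltc4s, Ptgs1, Ptgs2, Ptgis, Ptges and Hpgds. They were chosen by name, all 10 were found in the matrix, and a list of 76 further genes of the pathway, 74 of them in the matrix, was set beside them. The cells had been sorted from the peritoneal cavity on F4/80, the macrophage surface protein encoded by Adgre1. The labels describe 4 groups of mice aged 24 weeks, with 1 sample each. The first group was Apoe-/- mice given a high-fat diet and a monoclonal antibody, labelled Apoe-/- HFD anti-CVI-mAb. The others were Apoe-/- mice on the same diet (Apoe-/- HFD), Apoe-/- mice on a normal diet (Apoe-/-), and C57BL/6 mice of wild-type genotype on a normal diet (C57). High-fat feeding began when male mice were 4 weeks old and lasted 20 weeks, on chow with 21% fat and 0.15% cholesterol, and normal chow came back before treatment. At week 21 the antibody-treated mice had 3 mg of antibody in 200 µL injected into the peritoneal cavity, and mice of the other 3 groups the same volume of PBS, a buffer. Apoe encodes apolipoprotein E, and mice without it develop atherosclerosis. The labels do not say how many mice went into a sample.

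Eicosanoids are signalling lipids made from arachidonic acid and related fatty acids. Lipoxygenases add oxygen to give hydroxy acids and leukotrienes, and the cyclooxygenases Ptgs1 and Ptgs2 give prostaglandin H2, which separate synthases turn into prostaglandin E2, prostaglandin D2, prostacyclin or thromboxane. Resident macrophages of the mouse peritoneum are known for 12/15-lipoxygenase, the product of Alox15, and mast cells for prostaglandin D2 and cysteinyl leukotrienes.

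The matrix held 26811 cell barcodes with 4 suffixes, taken as 4 libraries of 40321459 to 78083803 transcript molecules (unique molecular identifiers, UMIs). Levels are in CPM, a gene's UMIs per 1000000 UMIs of the cells summed. No label or file header ties a suffix to a sample, so no value is assigned to a genotype, diet or treatment, and comparisons were made between cell classes inside each library. Kept barcodes numbered 20864, of which 15105 met the rule for macrophages, 44 that for mast cells, 1751 that for B cell-like and 266 that for T cell-like barcodes. Library 1 stood apart: the filters removed 42.3% of its barcodes, against 10.97 to 19.3% in the others, and its macrophages had a median of 8228 UMIs, against 12506.5 to 13951. Macrophages made up 42.5% of the kept barcodes of library 1, against 70.0 to 84.8% in the others. Apoe itself stood at 30.0, 863, 738 and 29778 CPM in macrophages of libraries 1 to 4. All 6 macrophage markers were detected in the macrophages of each library. Markers of eosinophils, cells that also use 12/15-lipoxygenase, summed to 0.222 to 1.13 CPM there, with 3 of the 6 at 0, and those of basophils to 0.453 CPM or less. The 4 libraries shared 52 barcode sequences, 35 of them among kept barcodes. Intervals in parentheses are exact 95% intervals and cover counting error only.

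The 2 cyclooxygenases catalyse the same reaction and their genes differed widely in level. The sequence before their start sites is given first, and its part in that difference was not tested. The lines hold the 250 bases before the annotated start of Ptgs1 at chr2:36230176-36230425 and of Ptgs2 at chr1:150099781-150100030, both on the plus strand of GRCm38.p6 and taken from RefSeq. A short stretch of Ptgs2 just after that start, at chr1:150100034-150100063, follows. Capitals mark matches to a motif.
Ptgs1: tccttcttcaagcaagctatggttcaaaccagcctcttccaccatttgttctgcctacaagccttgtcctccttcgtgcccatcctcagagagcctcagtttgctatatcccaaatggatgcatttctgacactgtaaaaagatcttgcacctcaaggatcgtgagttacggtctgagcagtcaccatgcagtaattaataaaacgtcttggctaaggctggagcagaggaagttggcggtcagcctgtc
Ptgs2: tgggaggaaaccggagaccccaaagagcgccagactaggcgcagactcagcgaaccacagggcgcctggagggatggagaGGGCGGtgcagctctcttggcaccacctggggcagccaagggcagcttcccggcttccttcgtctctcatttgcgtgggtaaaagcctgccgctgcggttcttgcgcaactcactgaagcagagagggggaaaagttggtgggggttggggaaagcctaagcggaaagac
Ptgs2, after the start: gtcaccactaCGTCACGTGgagtccgcttt
The motifs searched on both strands, from 250 bases before to 50 bases after the start, were the GC box GGGCGG, the cyclic AMP response core TGACG, the E-box CACGTG, the TATA box TATAAA and the GATA site AGATAA. The Ptgs2 window held a GC box 170 bases before the start, and a cyclic AMP response core on the minus strand overlapping an E-box, 14 and 17 bases from it. The Ptgs1 window held none of the 5 motifs. Of 32851 mouse promoter windows of this length, 35.7% held the GC box, 20.8% the cyclic AMP response core, 7.15% the E-box, 13.6% the TATA box and 11.2% the GATA site. The bases before the start were 48.0% G or C in Ptgs1 and 61.6% in Ptgs2, beside a median of 52.4% over all windows. RefSeq windows were found for 7 of the 10 genes; Alox15, Alox5ap and Ptgis are named only. A match is a description of letters and was not tested as a binding site.

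In macrophages Ptgs1 was well expressed and Ptgs2 nearly absent. Ptgs1, the constitutive enzyme, was at 443, 396, 309 and 301 CPM in libraries 1 to 4. Ptgs2, the inducible enzyme, was at 1.21 (0.690 to 1.96), 0.181 (0.0866 to 0.332), 0.302 (0.182 to 0.471) and 0.0742 CPM (0.0241 to 0.173). Its 16, 10, 19 and 5 UMIs came from 3, 5, 3 and 4 cells, and 1 cell held 14 of the 16 in library 1 and 17 of the 19 in library 3. Ptgs2 was thus detected in single cells and near the detection limit elsewhere, while Ptgs1 had a UMI in 90.6 to 95.3% of macrophages. B cell-like barcodes held no Ptgs2 UMI in any library and 5.27 to 13.3 CPM of Ptgs1.

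Alox15 had the highest level of the 10 genes in macrophages of every library. It was at 1897 (1874 to 1921), 2362 (2349 to 2375), 2624 (2611 to 2637) and 2553 CPM (2541 to 2565), and by its lowest level over the 4 libraries it ranked 64th among all genes of the matrix. It is annotated to chromosome 11, at 70344152 to 70352031 of GRCm38, minus strand. Ltc4s, the synthase of leukotriene C4, came next at 1134, 1221, 1169 and 1212 CPM. Alox5ap, which encodes the protein FLAP that presents arachidonic acid to 5-lipoxygenase, was at 807, 951, 1114 and 1075 CPM. Alox5, the gene of 5-lipoxygenase itself, was lower at 131, 103, 109 and 116 CPM. Transcripts are counted by their 3' ends, so these levels are not divided by gene length, and how efficiently each gene is captured is not known.

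Lta4h, Ptges and Hpgds, which act at the last step to leukotriene B4 and prostaglandins E2 and D2, were low in the same cells. Lta4h, the hydrolase that makes leukotriene B4, was at 42.2, 34.6, 26.02 and 25.3 CPM. Its level in B cell-like barcodes was 19.3 to 26.4 CPM and in T cell-like barcodes 49.6 to 91.9 CPM, so it was higher in T cell-like barcodes than in macrophages of each library. Ptges, the inducible microsomal synthase of prostaglandin E2, was at 16.8, 15.4, 13.1 and 13.5 CPM, above the 0.418 to 1.11 CPM of B cell-like barcodes. Ptges3, a gene of the further list named after its values were seen, is annotated as the cytosolic synthase of prostaglandin E2. It was at 119, 103, 98.6 and 85.3 CPM, nearer to Alox5 than to Ptges. The Ptges3 level of B cell-like barcodes was not computed, so its level is not read as particular to macrophages. Hpgds, the haematopoietic synthase of prostaglandin D2, was at 1.43, 1.32, 1.18 and 1.26 CPM, at or below the 1.49 to 4.22 CPM of B cell-like barcodes. The Hpgds level of macrophages was thus not above that of B cell-like barcodes in any library.

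Among the members that reached 20 CPM in a library, Ptgis, which encodes prostacyclin synthase, differed most between libraries. Macrophages had 47.8 (44.2 to 51.7), 27.6 (26.22 to 29.01), 251 (247 to 255) and 294 CPM (290 to 298), a range of 10.6-fold. Libraries 1 and 2 were low and libraries 3 and 4 high, without overlap. Ptgs2, below that level, had a larger log2 range of 3.93, from 5 to 19 UMIs a library, against 3.41 for Ptgis. Of the 7 members with at least 20 CPM in a library, Ptgis alone had a range of 2-fold or more; 30.6% of the 6297 genes at that level did, so a range of this kind was common in the matrix. At the other end, Ltc4s spanned 1.08-fold, where the median gene spanned 0.76 on the log2 scale. Alox5, Alox5ap, Alox15 and Ptgs1 spanned 1.27, 1.38, 1.38 and 1.47-fold, and Lta4h 1.67-fold. In the order of levels, Ptgs1 and Ptgis overlapped in library 4, as did Ptgis and Lta4h in library 1, and Ptgis changed places with Alox5 between libraries. These spans mix any effect of the 4 unassigned conditions with library quality and with the make-up of the cells, and these cannot be told apart.

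**Figure D1:**
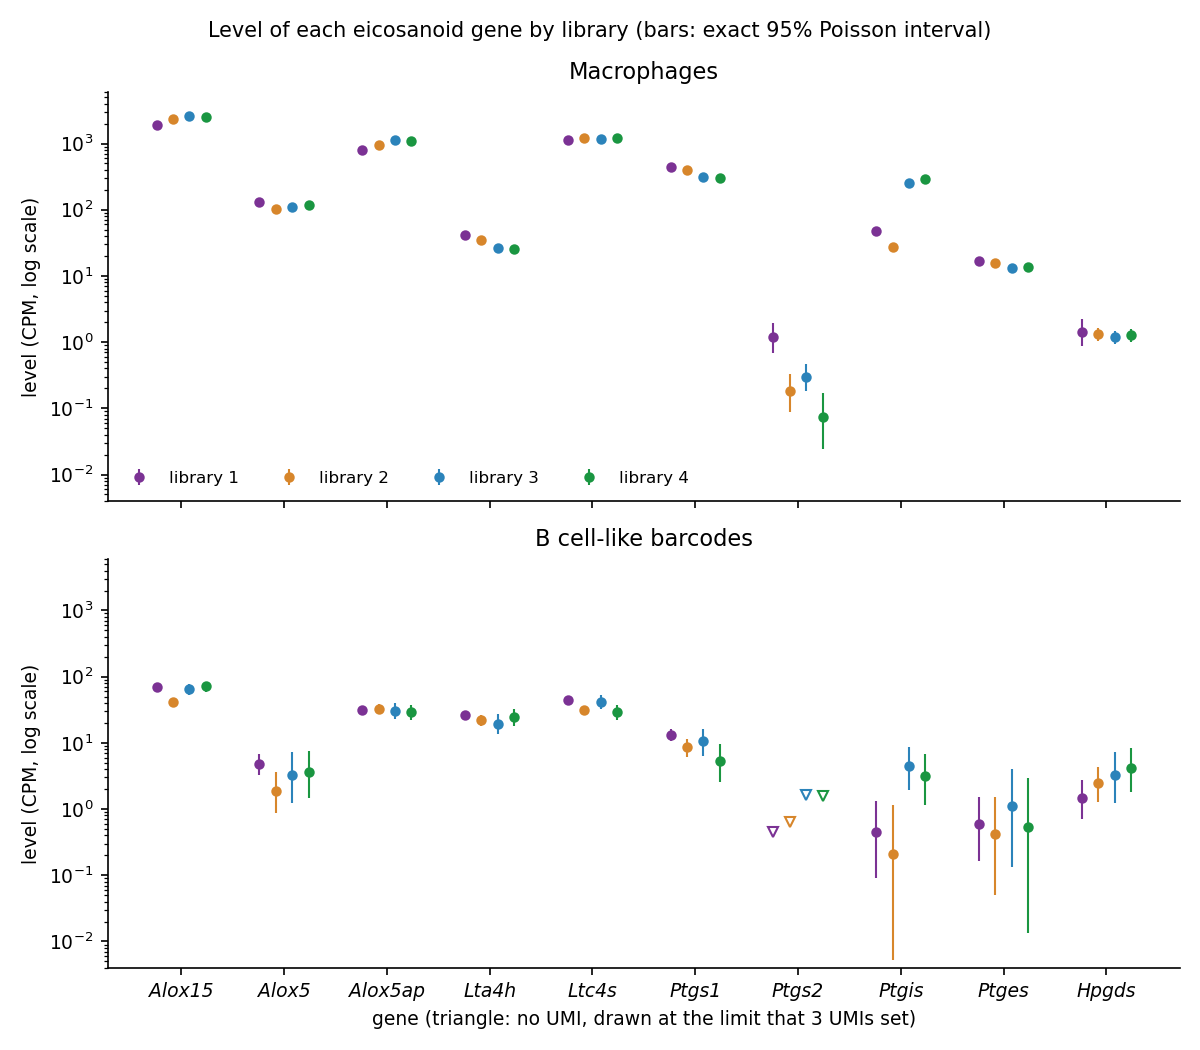
Level of each of the 10 genes in macrophages (upper panel) and B cell-like barcodes (lower panel), in CPM on a log scale, 1 point for each library with its exact 95% Poisson interval; open triangles stand for no UMI and lie at the limit that 3 UMIs set. Ptgis separates libraries 1 and 2 from libraries 3 and 4, while Ltc4s stays between 1134 and 1221 CPM.

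Among the 74 further pathway genes, 29 reached 20 CPM in macrophages of a library and 14 of these spanned 2-fold or more. Over all 6297 genes at that level, 30.6% did. Cbr2, the gene of a carbonyl reductase, spanned 23.0-fold with 158, 18.4, 10.8 and 6.85 CPM. Coro1a, the gene of the actin-binding protein coronin 1A, spanned 5.13-fold with 56.98, 145, 28.2 and 28.7 CPM. The gene Cyp4f18, of the cytochrome P450 family 4, spanned 11.9-fold, with 28.9 CPM in library 1 and 2.41 to 2.94 CPM in the others. Of the 14, 8 were highest in library 1, 3 in library 2, 1 in library 3 and 2 in library 4, so the list did not share 1 pattern. The same split over all genes was not counted, so it is not read as particular to the list. Highest in library 3 or 4 were Pla2g7, Lpcat2 and Mgst1, with ranges of 2.76, 4.14 and 2.25-fold. Pla2g7 was at 210, 103, 285 and 225 CPM in libraries 1 to 4. Lpcat2 was at 14.0, 36.0, 45.3 and 58.3 CPM, and Mgst1 at 167, 309, 358 and 376 CPM. In all of them the gap from libraries 1 and 2 to libraries 3 and 4 was narrower than that of Ptgis. The genes of this paragraph were named after their values were seen.

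Alox15 was found in most single macrophages rather than in a small subset. To compare cells of unlike depth, 3000 UMIs were drawn at random from each cell (thinning), which left out 85, 55, 24 and 29 macrophages. An Alox15 UMI was then present in 85.9% (84.0 to 87.7), 92.2% (91.3 to 93.0), 96.6% (96.1 to 97.2) and 95.7% (95.2 to 96.3) of macrophages, and without thinning in 93.2, 96.4, 99.2 and 98.6%. The same share was 18.5, 12.6, 17.5 and 18.7% of B cell-like barcodes, which should lack the gene and had medians of 9396, 7042, 4848 and 6368.5 UMIs before thinning. The median thinned macrophage held 4, 6, 7 and 7 Alox15 UMIs. The variance was 4.39, 3.65, 3.02 and 2.83 times the mean, where counting alone would make both equal, so cells differed in Alox15 beyond counting and most so in library 1. Without thinning, the tenth of macrophages with the most UMIs of Alox15 held 34.4, 26.6, 23.6 and 23.1% of all its UMIs. The depth of cells enters these last shares.

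**Figure D2:**
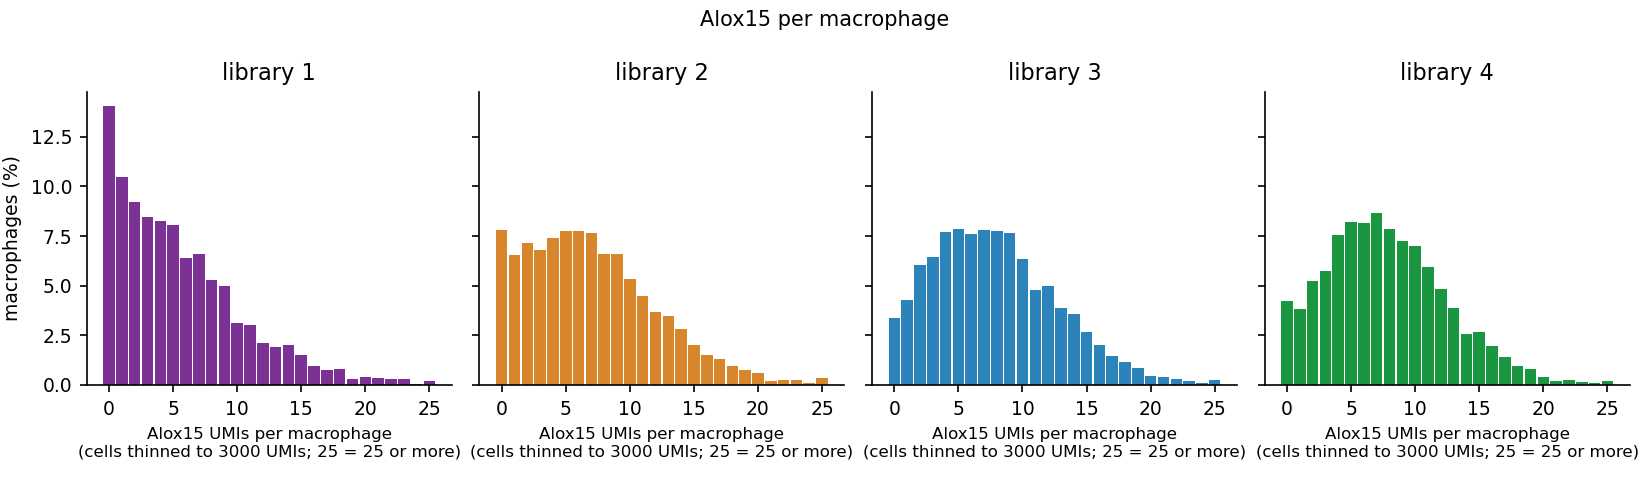
Share of macrophages (percent, vertical axis) by number of Alox15 UMIs after thinning each cell to 3000 UMIs (horizontal axis, 25 standing for 25 or more), 1 panel for each library. Cells without a UMI make up 14.1, 7.81, 3.36 and 4.25% in libraries 1 to 4; libraries 1 and 2 have their highest bar at 0, and libraries 3 and 4 at 5 and 7 UMIs.

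Ptgis UMIs were found in fewer macrophages than those of Alox15, which was at a higher level. After thinning, 9.30% (7.86 to 10.9), 5.26% (4.602 to 5.98), 43.2% (41.8 to 44.7) and 47.4% (46.0 to 48.8) of macrophages had a Ptgis UMI, and without thinning 15.2, 11.6, 71.3 and 73.6%. In B cell-like barcodes the thinned share was 0.347, 0.182, 1.14 and 1.98%, below that of macrophages in each library. With a mean of 0.159, 0.0740, 0.763 and 0.913 Ptgis UMIs per thinned macrophage, cells without a UMI cannot be told from cells that lack the transcript. Alox5ap and Ltc4s, which were at higher levels, had a UMI in at least 88.3% and 91.9% of thinned macrophages of each library, and Alox5 in 26.4 to 30.4%. The same shares in B cell-like barcodes were at most 8.75, 14.04 and 1.21%.

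Macrophages were split by 3 further genes into classes that could overlap. Timd4, a phosphatidylserine receptor of long-lived resident macrophages, marked 122, 541, 2069 and 2655 cells with at least 3 UMIs (Timd4-high). Folr2, the folate receptor beta, marked 852, 952, 321 and 303 cells with at least 2 UMIs (Folr2-positive). Ccr2, the chemokine receptor of monocyte-derived cells, marked 169, 801, 144 and 285 cells with at least 3 UMIs (Ccr2-high). The remaining 523, 2243, 1971 and 1973 cells met none of these, and 129, 303, 166 and 195 met more than 1. The 10 markers of large peritoneal macrophages summed to 6578 to 9473 CPM in Timd4-high, 3551 to 5821 CPM in Folr2-positive and 1834 to 4310.5 CPM in Ccr2-high cells. The 10 markers of small peritoneal or monocyte-derived macrophages ran the other way, with 2309.6 to 8619 CPM in Timd4-high, 10963.6 to 17909 CPM in Folr2-positive and 18853 to 49791 CPM in Ccr2-high cells. Gata6, the transcription factor of large peritoneal macrophages, was at 123, 108, 140.1 and 143 CPM in Timd4-high and 15.7, 45.5, 50.2 and 73.4 CPM in Ccr2-high cells. These lists hold Timd4, Folr2 and Ccr2 themselves, so the order of the sums partly follows from the split. Because the split reads UMI counts, deeper cells meet it more easily.

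Alox15 was present in all 3 classes and lower in Folr2-positive and Ccr2-high cells than in Timd4-high ones. Its level was 2520.1, 2280.3, 2677 and 2605 CPM in Timd4-high cells of libraries 1 to 4, and 1583, 1712, 1764 and 1631 CPM in Folr2-positive cells. In Ccr2-high cells it was 787, 1934, 1462 and 1733 CPM, and in cells of none of the classes 2673, 2744, 2741 and 2675 CPM. The values of the Folr2-positive and Ccr2-high cells lay below those of the other 2 sets in every library. Library 1 held the lowest single value, 787 CPM in Ccr2-high cells, of which 61.1% (53.2 to 68.5) had an Alox15 UMI after thinning, against 81.9 to 89.6% in the other libraries.

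**Figure D3:**
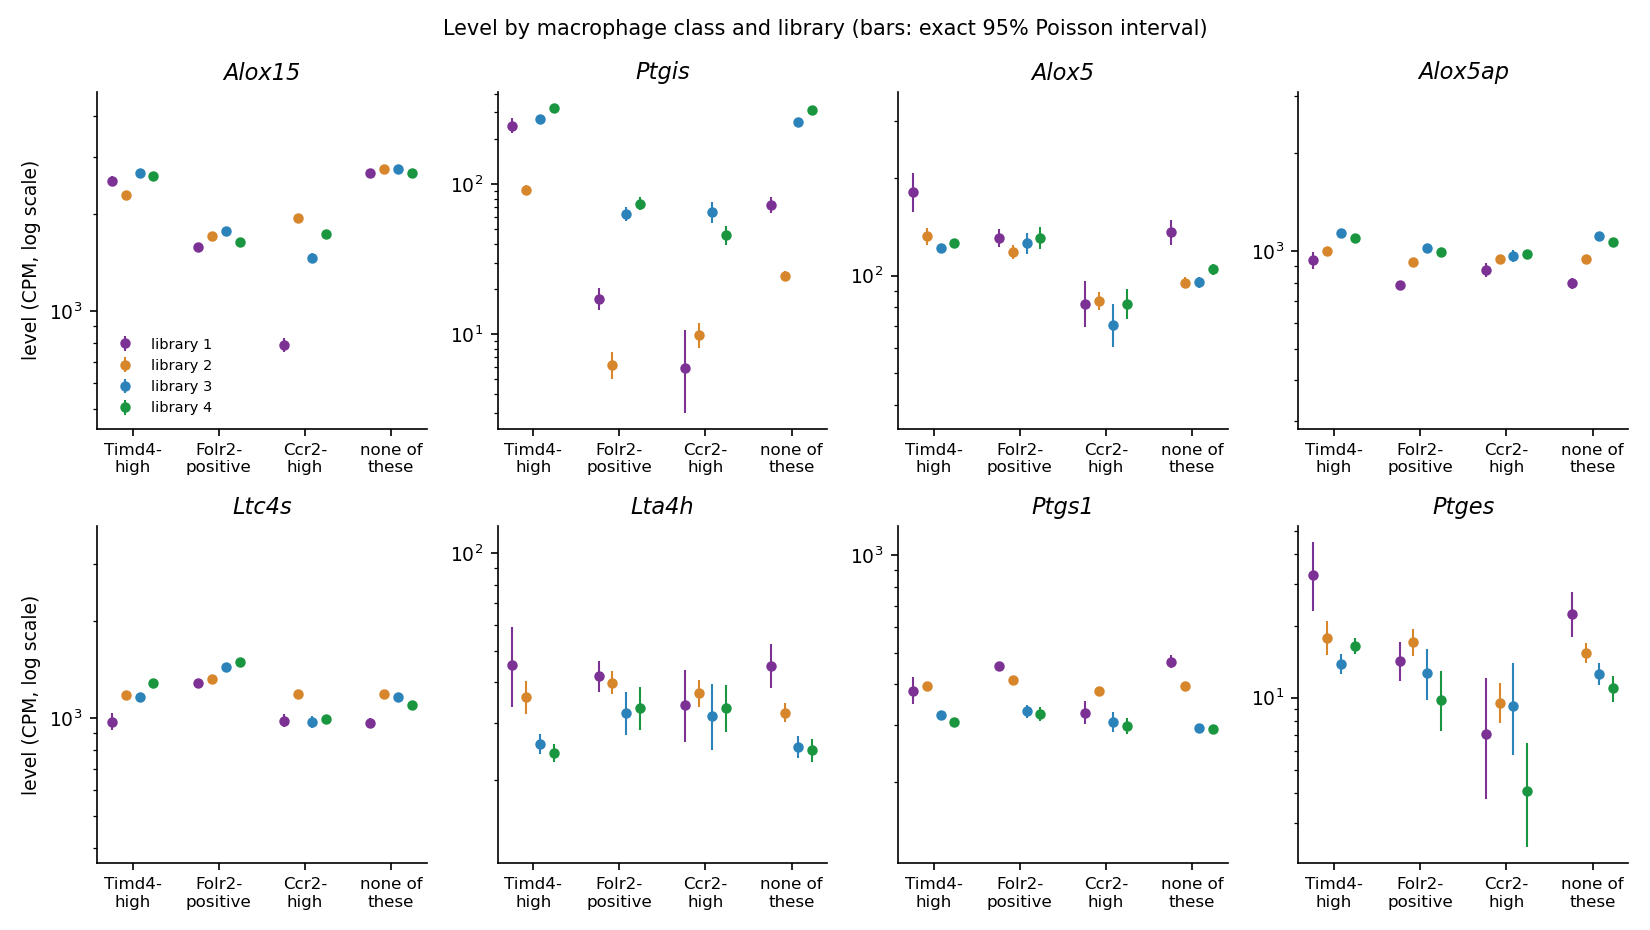
Level (CPM, log scale) of 8 members in Timd4-high, Folr2-positive and Ccr2-high macrophages and in macrophages of none of these classes, 1 point for each library with its exact 95% Poisson interval. Alox15 and Ptgis are lower in Folr2-positive and Ccr2-high cells, and Ltc4s is highest in Folr2-positive cells of every library.

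Each class was compared with the other macrophages of its own library by the log2 ratio of summed CPM, and genes were called past a rule of size if they had at least 20 CPM in the higher set and a ratio of at least 1 in size, in 1 direction, in every library. Cells are not replicates and each library is 1 sample, so no p-value was computed. Comparisons of different classes draw on the same macrophages and are not independent.

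Folr2-positive cells had less Ptgis than other macrophages. Ptgis was at 17.2, 6.22, 63.1 and 73.9 CPM in Folr2-positive cells, against 95.2, 35.0, 269 and 312 CPM in the other macrophages. The log2 ratios were -2.47 (-2.75 to -2.20), -2.49 (-2.82 to -2.18), -2.09 (-2.25 to -1.94) and -2.07 (-2.23 to -1.93), a like difference in each library although the level itself differed widely between libraries. Ptgis was the 1 member of the 7 tested that was past the rule of size, and it was lower; 0.062% of the 4840 genes tested were past the rule as lower and 0.0826% as higher. Alox15 was at 1583, 1712, 1764 and 1631 CPM in Folr2-positive cells, against 2382, 2588, 2704 and 2629 CPM in the other macrophages. Its log2 ratios were -0.59, -0.60, -0.62 and -0.69, of 1 sign in all 4 libraries and short of the rule. Ltc4s leaned the other way, at 1287, 1322, 1435 and 1489.6 CPM in Folr2-positive cells against 899, 1186, 1144 and 1189 CPM, with log2 ratios of 0.52, 0.16, 0.33 and 0.32. Over the 7 members the median ratio was 0.10, beside 0.12 over all genes tested.

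Hpgds was too low to be tested between macrophage classes, with 17, 31, 18 and 21 UMIs in Folr2-positive cells, against 2, 42, 56 and 64 in the other macrophages. Its level was 2.11, 2.17, 3.35 and 4.12 CPM in Folr2-positive cells, against 0.384, 1.02, 0.973 and 1.03 CPM in the others. The values for Folr2-positive cells overlap the 1.49 to 4.22 CPM of B cell-like barcodes.

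Ccr2-high cells likewise had less Ptgis. It was at 5.96, 9.81, 64.9 and 45.7 CPM in Ccr2-high cells, against 54.6, 32.0, 258 and 310.1 CPM in the other macrophages. The log2 ratios were -3.13 (-4.21 to -2.35), -1.70 (-2.00 to -1.42), -1.99 (-2.23 to -1.77) and -2.76 (-2.97 to -2.56). Ptgis was again the 1 member past the rule, as lower; 0.246% of the 4881 genes tested were past it as lower and 0.102% as higher. Alox15 was at 787, 1934, 1462 and 1733 CPM in Ccr2-high cells, against 2077, 2468, 2669.7 and 2608 CPM, with log2 ratios of -1.40, -0.35, -0.87 and -0.59. Alox5 was at 81.8, 83.7, 70.3 and 81.7 CPM in Ccr2-high cells, against 139, 108, 110.4 and 118 CPM, with log2 ratios from -0.76 to -0.36. Dendritic cell markers summed to 55.3, 6.18, 50.2 and 74.5 CPM in Ccr2-high cells, with all 7 detected in libraries 2 and 3 and 6 in libraries 1 and 4, against 22.7, 2.69, 8.75 and 10.9 CPM in all macrophages. In Timd4-high cells these markers summed to 64.6 CPM in library 1, from 4 of the 7, and to 3.62 to 9.66 CPM in the others. Their part in these ratios was not tested. Of the 7 members tested, 5 were lower in Ccr2-high cells of all 4 libraries and none was higher in all 4, while 12.2% of all genes tested were lower and 23.7% higher in all 4. The members had a median ratio of -0.25, beside 0.06 over all genes tested.

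Timd4-high cells had no member past the rule against other macrophages; 0.0426% of the 4691 genes tested were past it as higher and 0.0853% as lower. Here Ptgis split the libraries. It was at 245, 91.0, 272 and 319 CPM in Timd4-high cells, against 29.5, 16.4, 229 and 260.4 CPM in the other macrophages. The log2 ratios were 3.06 (2.83 to 3.29) and 2.47 (2.32 to 2.62) in libraries 1 and 2, and 0.25 (0.20 to 0.29) and 0.29 (0.25 to 0.33) in libraries 3 and 4. The Timd4-high cells of library 1 thus had a Ptgis level near that of libraries 3 and 4, while those of library 2 were lower, at 91.0 CPM against 272 and 319 CPM. In cells of none of the classes Ptgis was at 72.5, 24.3, 260 and 313 CPM, so the gap between libraries was present there as well. Alox15 had log2 ratios of 0.45, -0.06, 0.06 and 0.07 and Alox5 of 0.52, 0.44, 0.35 and 0.30.

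The direct comparison of Timd4-high with Ccr2-high cells, leaving out cells in both, gave the widest gap. Ptgis was at 250.3, 96.1, 274 and 321 CPM in Timd4-high cells, against 5.50, 7.06, 48.5 and 36.8 CPM in Ccr2-high cells. The log2 ratios were 5.44 (4.61 to 6.58), 3.76 (3.42 to 4.14), 2.49 (2.20 to 2.80) and 3.12 (2.88 to 3.38), the first from 10 UMIs in Ccr2-high cells. Ptgis was the 1 member past the rule, as higher; 0.955% of the 4921 genes tested were past it as higher and 0.549% as lower. Alox5 was at 184, 135, 122 and 127 CPM in Timd4-high cells, against 82.5, 81.9, 69.5 and 79.2 CPM in Ccr2-high cells, with log2 ratios of 1.16, 0.72, 0.81 and 0.68. Alox15 had ratios of 1.72, 0.26, 0.98 and 0.61. Ptges, below the level required for testing, was at 31.7, 19.0, 13.9 and 16.5 CPM in Timd4-high cells, against 6.05, 9.71, 7.66 and 3.47 CPM in Ccr2-high cells. Ptgs1, Alox5ap and Ltc4s kept within 0.37 on the log2 scale in every library.

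**Figure D4:**
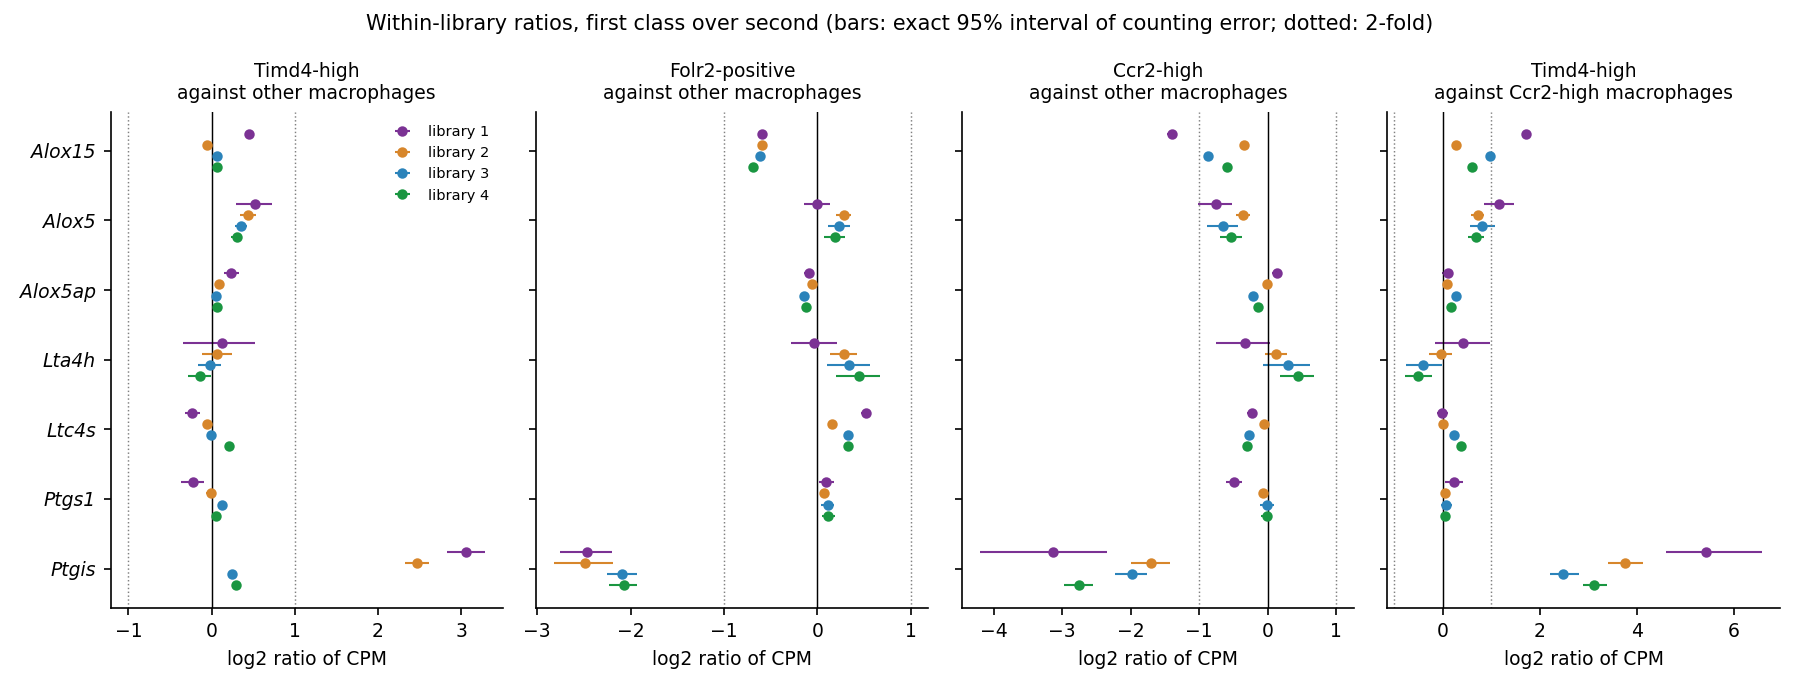
Log2 ratio of CPM, the class named first over the one named after it, for the 7 members at testable levels (rows), 1 point for each library with its exact 95% interval of counting error; dotted lines mark 2-fold. Ptgis lies beyond the dotted line in every library in 3 of the 4 panels, and in the Timd4-high panel in libraries 1 and 2 alone.

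Of the 74 further pathway genes, Coro1a and Cbr2 went past the same rule between macrophage classes. Coro1a was lower in Timd4-high cells, with a median log2 ratio of -1.52 against other macrophages, as 1 of 20 list genes tested, and -3.94 against Ccr2-high cells, again as 1 of 20. Over all genes tested, 0.0853% were past the rule as lower against other macrophages and 0.549% against Ccr2-high cells. Coronin 1A is not an enzyme of the pathway. Cbr2 was higher in Folr2-positive cells, with 223, 41.7, 61.6 and 34.3 CPM against 56.4, 10.3, 6.04 and 4.61 CPM in other macrophages, as 1 of 21 list genes tested. Over all genes tested, 0.0826% were past the rule as higher there. Outside library 1, Cbr2 reached 20 CPM through Folr2-positive cells alone, so its passing is a description. No list gene passed in Ccr2-high cells, of 19 tested, beside 0.102% of all genes tested as higher and 0.246% as lower.

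Macrophages with an Alox15 UMI were compared with those without, after thinning and with Alox15 left out of the totals. There were 1247, 3838, 4165 and 4776 Alox15-positive cells, against 204, 325, 145 and 212 Alox15-negative cells. No member was past the rule; 0.0204% of the 4895 genes tested were past it as higher and 0.143% as lower. Ptgis was at 61.1, 26.3, 259 and 313 CPM in Alox15-positive cells, against 4.90, 6.15, 136 and 132 CPM in Alox15-negative cells. Its log2 ratios were 3.42 (2.07 to 5.93), 1.98 (0.96 to 3.55), 0.92 (0.56 to 1.33) and 1.24 (0.93 to 1.57), so library 3 kept it from the rule, and the first 2 rest on 3 and 6 UMIs in Alox15-negative cells. Alox5ap was at 771, 943, 1121 and 1081 CPM in Alox15-positive cells, against 915, 919, 1076 and 1039 CPM, a log2 ratio between -0.25 and 0.06. Of the list, Cbr2 was past the rule as lower, at 143, 12.7, 7.38 and 4.76 CPM in Alox15-positive cells, against 289, 49.2, 36.8 and 33.0 CPM, as 1 of 21 tested. Outside library 1, Cbr2 reached 20 CPM through Alox15-negative cells alone, so its passing is a description. Both sets also differed in make-up: Folr2-positive cells were 55.4, 20.0, 6.46 and 5.03% of Alox15-positive cells, against 73.0, 56.3, 35.2 and 29.7% of Alox15-negative cells. Ccr2-high cells were 8.18, 18.6, 2.83 and 5.11% of Alox15-positive cells, against 31.9, 25.5, 17.9 and 19.3% of Alox15-negative ones. The part of this make-up in the ratios was not tested.

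Genes that went with Alox15 were ranked by Pearson's r of log2(CPM + 1) over 16 sums, 4 libraries by 4 non-overlapping macrophage sets, among 5049 genes. The sums of a library share its depth and treatment of cells, so r is a description. The highest were Tlr13 (0.93), an endosomal receptor for bacterial RNA, Prg4 (0.93), the lubricating proteoglycan 4, Ubxn8 (0.92), Gsr (0.91), the gene of glutathione reductase, and Itga6 (0.90), integrin alpha 6. The lowest were Tuba1a (-0.90), an alpha tubulin, Gm2a (-0.89), the GM2 ganglioside activator, and Arhgap18 (-0.88). Prg4 is 1 of the markers of large peritoneal macrophages used here. Among the members, Ptgis stood at 0.72 with Alox15, Alox5 at 0.56 and Alox5ap at 0.42, while Lta4h stood at -0.35.

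Mast cells, recognised by at least 20 UMIs of the protease genes Cma1, Mcpt4, Cpa3 and Tpsb2, were few, with 28, 4, 8 and 4 cells in libraries 1 to 4 and medians of 1982.5 to 2760.0 UMIs. Their 10 markers summed to 34379 CPM in library 2 and to 93105 CPM or more in the others. Macrophage markers were also present, at 5134, 21388, 10863 and 22355 CPM, against 37303, 45013, 52607 and 62417 CPM in macrophages. Dendritic cell markers were all at 0.

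Hpgds was higher in mast cells than in macrophages. It was at 206 (113 to 346), 65.6 (1.66 to 366), 130 (26.8 to 379) and 226 CPM (27.3 to 816) in mast cells, against 1.43, 1.32, 1.18 and 1.26 CPM in macrophages. These levels rest on 14, 1, 3 and 2 UMIs, found in 12 of 28, 1 of 4, 3 of 8 and 2 of 4 mast cells. The log2 ratio was lowest in library 2 at 6.21 (0.31 to 8.16) and highest in library 4 at 7.80 (4.42 to 9.38). Ltc4s was lower in mast cells, at 250.1, 328, 519 and 339 CPM from 17, 5, 12 and 3 UMIs, against 1134, 1221, 1169 and 1212 CPM in macrophages, with log2 ratios from -2.14 to -1.11. Hpgds met the 20 CPM minimum through mast cells alone, so its passing the rule was fixed by that minimum and is a description. Of the other 7 members tested, Ltc4s was past the rule, as lower; 4.59% of the 4745 genes tested were past it as higher and 1.75% as lower. With these totals, a single UMI in mast cells of libraries 2 to 4 exceeds 20 CPM, so the rule is loose here. Ltc4s missed the rule when barcodes needed 1000 genes, with a median log2 ratio of -1.24, or had a mitochondrial limit of 5%, with -0.95.

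The other members were uncertain in mast cells. Alox15 had 12, 3, 6 and 11 UMIs, or 177, 197, 260 and 1242 CPM, against 1897, 2362, 2624 and 2553 CPM in macrophages. In library 1, leaving out 2 mast cells that also met the macrophage rule left 2 of the 12 UMIs, or 34.5 CPM, and in library 4 all 11 came from 1 cell. The part of the macrophage markers above in these values was not tested further. Alox5 was at 368 (238 to 543), 197 (40.6 to 575), 130 (26.8 to 379) and 113 CPM (2.86 to 629) in mast cells, against 131, 103, 109 and 116 CPM in macrophages, with 25 UMIs in library 1 and 3, 3 and 1 in the others. Ptgs2 had no UMI, which allows up to 44.1, 197, 130 and 339 CPM, and Ptgis had 4 UMIs in library 3 and none elsewhere. Of the list, Ptger3, a receptor of prostaglandin E2, had 5, 1, 1 and 1 UMIs in mast cells, against no UMI in the macrophages of any library; a gene with so few mast cell UMIs and none in macrophages passes the rule by its construction, and no list gene was past it otherwise.

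**Figure D5:**
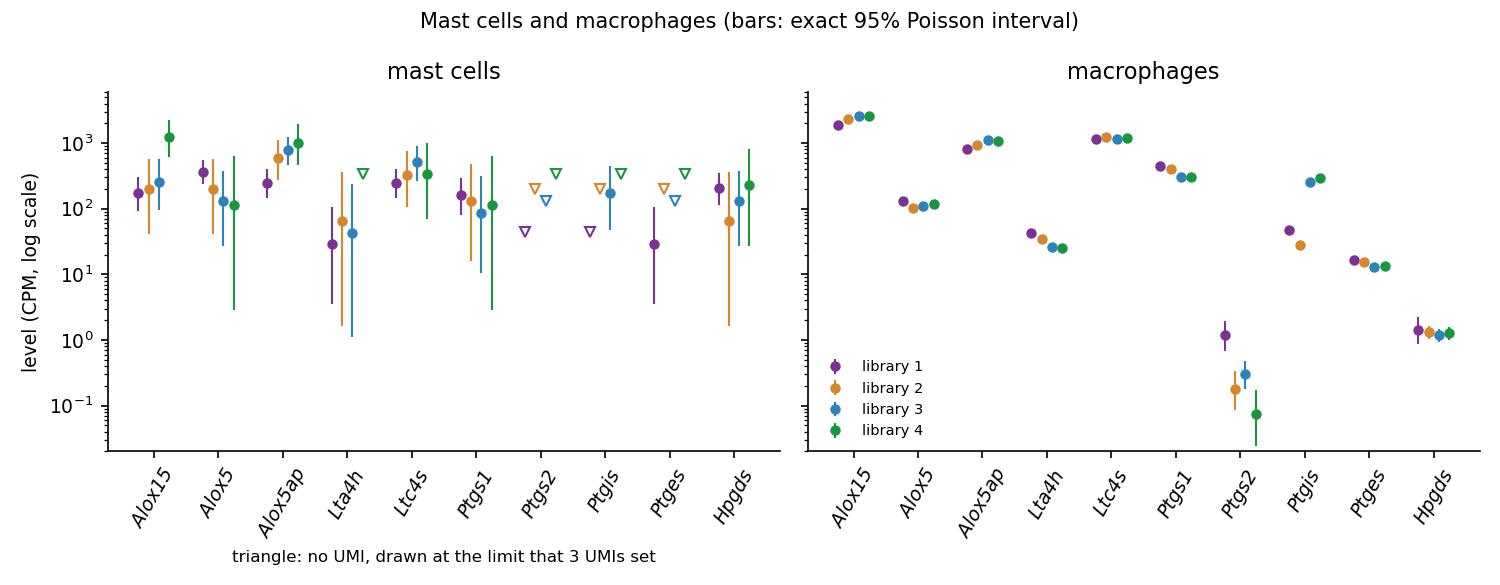
Level (CPM, log scale) of the 10 genes in mast cells (left) and macrophages (right), 1 point for each library with its exact 95% Poisson interval; open triangles stand for no UMI and lie at the limit that 3 UMIs set. Hpgds lies between 65.6 and 226 CPM in mast cells and between 1.18 and 1.43 CPM in macrophages.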

How the data were processed

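The deposited file is a single matrix of raw UMI counts for all samples, whose header names Cell Ranger 5.0.1. CASAVA 1.8, Seurat and mm10 appear in the submitters' processing notes. No header or label states the counting settings, such as strand or introns. A barcode needed 500 or more detected genes and no more than 10% mitochondrial UMIs, and doublets were not called. Macrophages had at least 2 UMIs of Adgre1 and none of Cd79a or Cd3e, and were not mast cells; B cell-like and T cell-like barcodes had at least 2 UMIs of Cd79a or Cd3e and none of the other 2 genes. UMIs were summed over the cells of a class and divided by all UMIs of those cells (CPM). Ratios used a prior count of 0.5; thinning used 1 random seed. Intervals are exact Poisson for levels, Clopper-Pearson for shares and conditional binomial for ratios. The members and lists were chosen with earlier results of these data known. Genes named are all members, list genes past the rule of size (at most 4 in each direction), and the 5 highest and 3 lowest by likeness to Alox15. The list symbols Fam213b and Dpep2 are not in the matrix under these names. The rule of size was tested on simulated data; for mast cells, unlike the macrophage classes, it missed many altered genes and called some unaltered ones. Positions come from GENCODE M21 on GRCm38 and are counted from 1. Alternatives covered scaling, minimum level, size of the rule, cell filters, class definitions, thinning and leaving out each library. Python 3.11.15, numpy 2.4.6, scipy 1.17.1 and pandas 2.3.3 were used.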

Additional observations from a re-analysis of the deposited data

How the results depend on the processing

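Ptgis stayed past the rule of size as lower in Folr2-positive and in Ccr2-high cells, and as higher in Timd4-high than in Ccr2-high cells, under every alternative run, and no ratio of a member that was past the rule changed sign. Lower minimum levels, the 1.5-fold rule and leaving out a library could not have removed Ptgis, since they only loosen the rule. Changes of scaling, cell filters and class definitions could have. Of 580 ratios recomputed for members tested in the main setting, 563 kept their side of the rule, 15 passed it newly and 2 no longer did. Members that an alternative alone brought to testing are not in this tally. With no minimum beyond 1 UMI, the count of members past the rule became 1 in Timd4-high cells (Ptgs2), 2 in Folr2-positive cells (Ptgis and Hpgds) and 1 in the Alox15 comparison (Hpgds). A rule of 1.5-fold gave 2 in Folr2-positive cells (with Alox15), 2 for Timd4-high against Ccr2-high cells (with Alox5), 4 in mast cells (with Alox15 and Ptgs1) and 1 in the Alox15 comparison (Ptgis). Centring on the median gene gave 4 in mast cells and 1 in the Alox15 comparison, and cells not thinned also gave 1 in the Alox15 comparison (Ptgis in both). A minimum of 1000 genes left 1 in mast cells (Hpgds; Ltc4s at -1.24), and a mitochondrial limit of 5% replaced Ltc4s (-0.95) with Lta4h (2.64). Leaving out each library in turn gave 2 to 4 members in mast cells (4 without library 4) and 0 to 1 in the Alox15 comparison (Ptgis, without library 3); the counts of the other 4 comparisons did not move. The cause of these shifts was not tested. The mast cell counts include Hpgds, whose passing was described above as fixed by the minimum level. Counts over all genes follow as ranges and are not matched to each setting. The member counts under the alternatives are therefore not read as a result about the members.

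Counts over all genes moved more. In mast cells they ran from 226 to 5445, beside 301, and for Timd4-high cells from 2 to 68, beside 6. For Folr2-positive cells they ran from 7 to 135, beside 7, for Ccr2-high cells from 14 to 264, beside 17, for Timd4-high against Ccr2-high cells from 66 to 367, beside 74, and in the Alox15 comparison from 7 to 394, beside 8. Without library 2 these counts were 542 for mast cells, 12, 19 and 68 for Timd4-high, Folr2-positive and Ccr2-high cells, 115 for Timd4-high against Ccr2-high cells and 29 for the Alox15 comparison. Alox15 levels in macrophages moved to between 1849 and 2652 CPM under 3 cell filters chosen after seeing the data, and Ptgis levels to between 25.7 and 302 CPM. Classes read after thinning could not be had for mast cells, since a library then held none. No paired analysis was possible because, between the study's groups, each has 1 sample and no barcode suffix is tied to one. Class ratios were each taken within 1 library, and a test over the 4 ratios, which would treat unassigned libraries as replicates, was not run.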

Other observations

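Several pathway genes outside the 10 members, chosen after their values were seen, set the context of the levels above. Tbxas1, the thromboxane synthase that also uses prostaglandin H2, was at 257, 149, 84.9 and 89.8 CPM in macrophages of libraries 1 to 4. Ptgds, the lipocalin-type prostaglandin D2 synthase, and Alox12, the platelet-type 12-lipoxygenase, had no UMI in the macrophages of any library. Receptors were detected beside the synthases: Cmklr1, the receptor of chemerin and resolvin E1, was at 299.6, 168, 120 and 92.9 CPM, and Cysltr1, a receptor of cysteinyl leukotrienes, at 93.7, 73.7, 53.0 and 54.8 CPM. Ptger4, a receptor of prostaglandin E2, was at 59.2, 31.5, 34.9 and 50.7 CPM. Of the 19 receptor genes on the list, Fpr2 and Ptgir also reached 20 CPM in a library, and the rest did not. Ptger3, Ptgdr and Ptgfr had no UMI in macrophages.

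The genes most like Ptgis over the same 16 sums, also looked up after its values were seen, were Ltbp1 (r of 0.99), F5 (0.97), Vmn2r26 (0.97), Garnl3 (0.96) and Nt5e (0.94), and the least like were Fes (-0.94), Pgd (-0.91) and Atp8b4 (-0.90). Ltbp1 and Garnl3 are on the list of large peritoneal macrophage markers, and F5 encodes coagulation factor V.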
